A study of Mus musculus with 4 samples.

Results

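Potassium channel genes were taken as all genes in the deposited feature list whose symbol starts with Kcn, without the Kv channel interacting proteins Kcnip1 to Kcnip4, Kcne2, and antisense or opposite-strand transcripts. The rule gave 89 of 32286 listed features, from 99 symbols starting with Kcn of which 10 were left out. The genes were read in single nuclei prepared from snap-frozen hemispheres of C57BL/6 mice at postnatal day 14 and sequenced as 10x Genomics 3′ (version 3) libraries. There were 2 Ago2 KO libraries (genotype Slc17a6-Cre, Ago2 flox/flox) and 2 WT libraries (genotype Slc17a6-Cre, Ago2 wt/wt), so that the Cre driver was present in both groups. Slc17a6 encodes the vesicular glutamate transporter VGLUT2, and Slc17a6-Cre removes the floxed Ago2 allele in neurons that express or once expressed it, while cells that never express it keep the gene. Ago2 encodes Argonaute 2, which carries microRNAs to their target transcripts. Nothing in the labels ties the libraries to different mice, so the p-values below measure the spread between libraries, which may be technical.

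Potassium channels let potassium ions leave or enter a cell and so set its resting potential, the shape of its action potential and its firing rate. The voltage-gated Kv channels are built from pore subunits (Kcna, Kcnb, Kcnc, Kcnd, Kcnh and Kcnq genes) with auxiliary or silent partners. Inward rectifiers (Kcnj), leak channels with paired pore domains (Kcnk), calcium-activated BK and SK channels (Kcnma1 and Kcnn genes) and sodium-activated channels (Kcnt) complete the group. Glia use mainly inward rectifiers and leak channels to take up potassium that neurons release.

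Of 17802 deposited barcodes 15384 nuclei were kept, with 3215 and 3163 nuclei in the Ago2 KO libraries and 3212 and 5794 in the WT libraries, and median UMI counts (unique molecules per nucleus) of 2315 and 2376 in Ago2 KO and 2402 and 3086 in WT. Libraries shared 29 barcode sequences. WT replicate 1 stood apart: 17.8% of its barcodes exceeded a mitochondrial share of 5%, against 5.64% and 6.13% in the Ago2 KO libraries and 8.78% in WT replicate 2, and its summed mitochondrial level was the highest of the 4 libraries in each compared class except endothelial cells. The nuclei formed 28 clusters, which were named from marker lists with the potassium channel genes left out of the clustering. Each name used here means nuclei that resemble that type by its markers. The 15 compared classes each had at least 20 nuclei in every library; 14 were named, and 1 deep cluster of 1565 nuclei that met no marker list is called the unnamed neurons here. Cerebellar classes were present, although the series' design text speaks of cortical cells. The class named for Slc17a6 held 117 nuclei and was mixed, since the summed level of 7 Purkinje cell markers in it was 5647 and 168 CPM (UMIs scaled to 1000000 UMIs of the class in that library) in the Ago2 KO libraries and 1997 and 2918 CPM in the WT libraries.

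Ago2 itself passed the threshold in none of the classes. In cortical excitatory neurons it stood at 105 and 102 CPM in Ago2 KO and 73.5 and 78.8 CPM in WT, and in the Slc17a6 class at 60.7 and 51.6 CPM in Ago2 KO and 47.4 and 65.9 CPM in WT. Its log2 change, Ago2 KO over WT, lay between -0.32 and 0.58 over the 15 classes and was positive in 9, with 0 called by edgeR and 1 at an unadjusted p under 0.05. A 3′ tag reads the end of the transcript and does not check a deletion elsewhere in the gene, so these counts do not test the genotype labels. Slc17a6 averaged 139 CPM in the class named for it, 73.6 CPM in the unnamed neurons and 16.2 CPM in cortical excitatory neurons, the class set against others below. Its mean was above that excitatory level in cerebellar granule neurons (26.0 CPM), endothelial cells (24.3 CPM) and microglia (17.2 CPM) too. The excitatory class is therefore not marked out by its level of the driver gene.

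The 89 genes gave 718351 UMIs. Kcne3 and Kcnj1 had 0 UMIs in all kept nuclei, 19 genes had fewer than 50 UMIs including these 2, and 50 reached 50 UMIs in the class where they were highest. The 4 Kcne genes in the set, which encode single-pass auxiliary subunits, were all under 50 UMIs. Kcne2 was left out by the rule and is not covered. Kcnd2, Kcnma1, Kcnq5, Kcnb2 and Kcnh7 together held 62.2% of the UMIs, and each of these 5 genes spans at least 436 kb. Over the 87 detected genes, total UMIs and gene span were correlated (Spearman's rho of 0.78, across genes, given as a description). The levels are not per length, so a gene is compared here only with itself in other classes. The summed level of all 89 genes averaged 16644 CPM in Meis2 GABAergic neurons, 16496 CPM in the Slc17a6 class, 15754 CPM in cerebellar granule neurons and 15413 CPM in cortical excitatory neurons. It averaged 11993 CPM in oligodendrocyte precursors (OPC), 7666 CPM in astrocytes and 3549 CPM in oligodendrocytes, the lowest of the 15 classes. The neuronal vesicle gene Syt1 averaged 1434 CPM in microglia, 856 CPM in endothelial cells, 499 CPM in astrocytes, 493 CPM in OPC and 353 CPM in oligodendrocytes, against 4052 CPM in cortical excitatory neurons. The part of free neuronal RNA in the levels of non-neuronal classes was not tested.

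A gene was called separated when its lowest library in its highest class exceeded the highest library of every other compared class. Of the 50 genes with at least 50 UMIs in their highest class, 23 were separated, and cerebellar granule neurons held 9 of them. That minimum is easier to reach in classes with many nuclei, and granule neurons had 4120 nuclei against 117 in the Slc17a6 class. The share of separated genes over all genes is not given here. The heat map of levels by class shows 35 of these 50 genes, those described in the text.

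**Figure D1:**
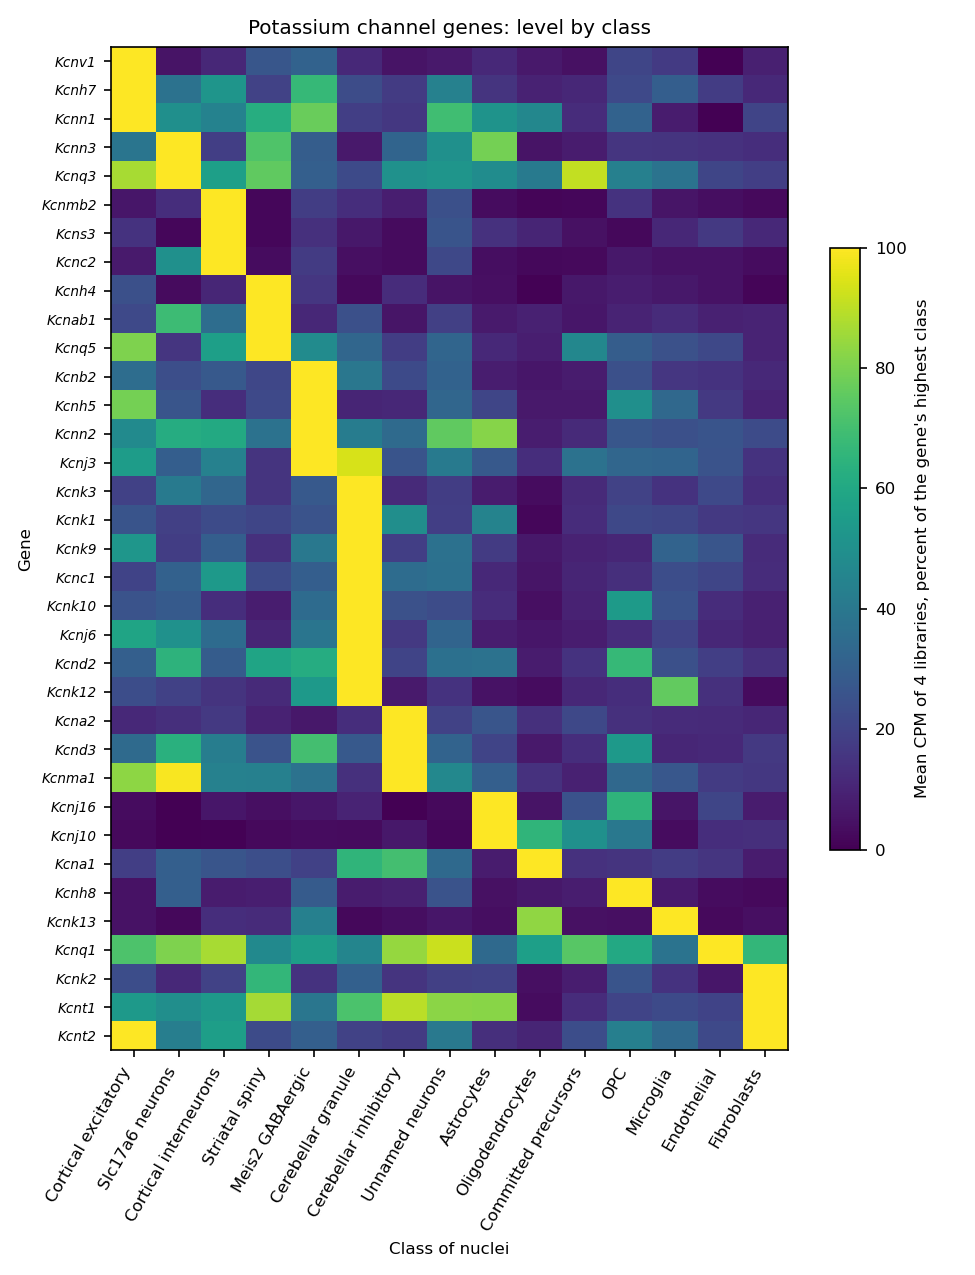
Mean level (CPM, 4 libraries) of 35 potassium channel genes with at least 50 UMIs in their highest class, as percent of each gene's highest class; columns are the 15 compared classes and rows are genes sorted by highest class. Yellow marks the highest class, and cerebellar granule neurons lead for 8 of these genes.

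Among Kv pore genes, Kcnd2, which encodes a subunit of fast inactivating A-type channels, was highest in cerebellar granule neurons, at 6837 and 8168 CPM in Ago2 KO and 7898 and 8532 CPM in WT. The next class was OPC, at 4663 and 5288 CPM in Ago2 KO and 5335 and 5820 CPM in WT, above the mean of cortical excitatory neurons (2390 CPM), astrocytes (2976 CPM) and oligodendrocytes (599 CPM). Committed oligodendrocyte precursors averaged 1141 CPM, so Kcnd2 stood lower in each later stage of the oligodendrocyte lineage, and the library ranges of the 3 stages did not overlap. Its relative Kcnd3 was highest in cerebellar inhibitory neurons, at 814 and 983 CPM in Ago2 KO and 806 and 916 CPM in WT.

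The Kcnc genes encode channels that open and close quickly and let neurons fire at high rates. Kcnc2 was highest in cortical interneurons, with 2777 and 1784 CPM in Ago2 KO and 1768 and 2500 CPM in WT, so the libraries of each genotype lay farther apart than the group means. In the Slc17a6 class it had 654 and 967 CPM in Ago2 KO and 1352 and 1469 CPM in WT, and it averaged 74.9 CPM in striatal spiny neurons. Kcnc1 was highest in cerebellar granule neurons, where it ranged from 229 to 263 CPM over the 4 libraries.

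Kcnb2, which encodes a delayed rectifier, was highest in Meis2 GABAergic neurons, with 2635 and 2427 CPM in Ago2 KO and 3177 and 3055 CPM in WT, against a mean of 1124 CPM in the next class, cerebellar granule neurons. This level was carried by 1 of the 2 Meis2 clusters: the more mature cluster averaged 3972 CPM and the cluster that also carried immature neuron markers 737 CPM.

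Of the Kcna genes, which make low-threshold axonal channels, Kcna2 was highest in cerebellar inhibitory neurons, at 118 and 119 CPM in Ago2 KO and 140 and 128 CPM in WT, against 33.0 CPM in the next class, astrocytes. Kcna1 was highest in oligodendrocytes, at 113 and 179 CPM in Ago2 KO and 184 and 169 CPM in WT, and averaged 113 CPM in cerebellar inhibitory neurons and 106 CPM in cerebellar granule neurons, so that the top classes overlapped. Kcnab1, a cytosolic beta subunit that binds Kcna channels, was highest in striatal spiny neurons, with 1155 and 1331 CPM in Ago2 KO and 1553 and 1541 CPM in WT. The silent subunits, which form no channel alone and modify Kcnb channels, were sparse: 4 of the 10 reached 50 UMIs in their highest class, and 2 were separated. Of these, Kcns3 averaged 30.3 CPM in cortical interneurons, against 7.82 CPM in the next class. Kcnv1 averaged 27.8 CPM in cortical excitatory neurons, against 8.79 CPM in Meis2 GABAergic neurons.

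The Kcnh genes encode the ether-à-go-go family. Kcnh7 was highest in cortical excitatory neurons, with 1639 and 1796 CPM in Ago2 KO and 1978 and 2235 CPM in WT. Kcnh4 was highest in striatal spiny neurons, where its 4 libraries lay between 67.7 and 78.6 CPM, against a mean of 17.8 CPM in the next class. Kcnh8 was highest in OPC, with 300 and 278 CPM in Ago2 KO and 320 and 287 CPM in WT, against 89.6 CPM in the Slc17a6 class. Kcnh5 was highest in Meis2 GABAergic neurons (mean of 295 CPM), just above cortical excitatory neurons (mean of 233 CPM). The M-current gene Kcnq3 was broad and averaged 1369 CPM in the Slc17a6 class and 1245 CPM in committed oligodendrocyte precursors. None of the 5 Kcnq genes was separated.

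**Figure D2:**
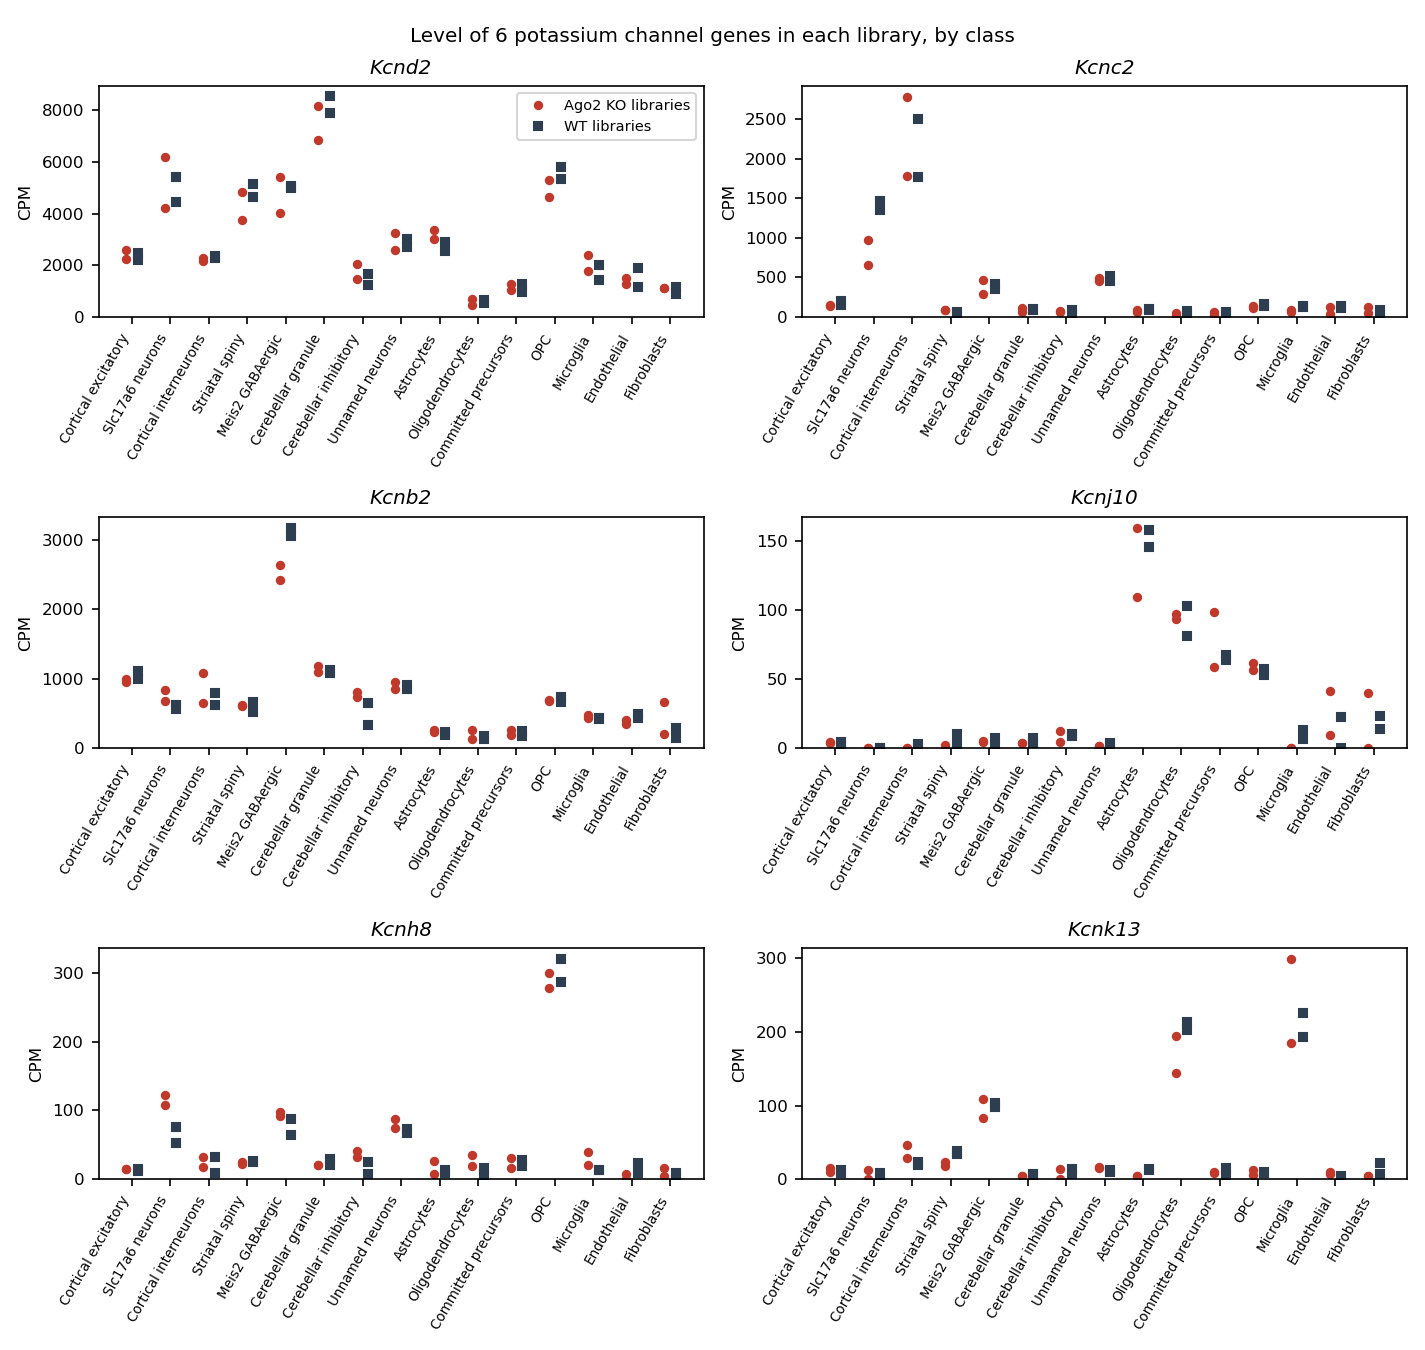
Level (CPM, linear axes) of 6 potassium channel genes in each of the 15 compared classes; red circles are the 2 Ago2 KO libraries and dark squares the 2 WT libraries. Kcnd2 peaks in cerebellar granule neurons, Kcnc2 in cortical interneurons, Kcnb2 in Meis2 GABAergic neurons, Kcnj10 in astrocytes and Kcnh8 in OPC, while Kcnk13 has similar levels in microglia and oligodendrocytes.

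Among the inward rectifiers, Kcnj10, the main potassium uptake channel of astrocytes, was highest in astrocytes, at 110 and 159 CPM in Ago2 KO and 158 and 145 CPM in WT. It averaged 93.7 CPM in oligodendrocytes, 72.1 CPM in committed precursors and 57.2 CPM in OPC, and 0.703 CPM in cortical interneurons. Within the astrocytes it differed between clusters, with a mean of 214 CPM in one cluster and 61.6 CPM in the cluster with Bergmann glia genes (Gdf10). Its partner subunit gene Kcnj16 averaged 24.6 CPM in astrocytes. Of the genes for channels opened by G proteins, Kcnj6 was highest in cerebellar granule neurons (mean of 513 CPM), and Kcnj3 averaged 612 CPM in Meis2 GABAergic neurons, 574 CPM in granule neurons and 231 CPM in committed oligodendrocyte precursors.

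Kcnj9, another gene of this G-protein-gated group, and Kcnj10 are neighbours on chromosome 1, read away from each other, with 11.9 kb between the start of Kcnj9 (minus strand, ending at 172329318) and that of Kcnj10 (plus strand, starting at 172341210). Their class patterns differed. Kcnj9 averaged 36.8 CPM in the Slc17a6 class, its highest, 34.7 CPM in cortical excitatory neurons and 5.48 CPM in astrocytes. Their RefSeq promoter windows (GRCm38.p6, 250 bases before to 50 after the annotated start) are shown because the genes are adjacent yet highest in different classes. Each is written 5′ to 3′ on the gene's strand with CG dinucleotides in capitals, and lies at chr1:172340960-172341259 (plus strand) for Kcnj10 and chr1:172329273-172329572 (minus strand) for Kcnj9.
Kcnj10: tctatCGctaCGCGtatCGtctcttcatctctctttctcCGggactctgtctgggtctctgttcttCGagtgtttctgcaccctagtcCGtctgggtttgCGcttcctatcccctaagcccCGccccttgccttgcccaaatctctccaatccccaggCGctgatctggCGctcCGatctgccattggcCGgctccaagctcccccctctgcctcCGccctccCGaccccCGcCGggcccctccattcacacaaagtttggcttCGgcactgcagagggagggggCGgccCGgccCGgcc
Kcnj9: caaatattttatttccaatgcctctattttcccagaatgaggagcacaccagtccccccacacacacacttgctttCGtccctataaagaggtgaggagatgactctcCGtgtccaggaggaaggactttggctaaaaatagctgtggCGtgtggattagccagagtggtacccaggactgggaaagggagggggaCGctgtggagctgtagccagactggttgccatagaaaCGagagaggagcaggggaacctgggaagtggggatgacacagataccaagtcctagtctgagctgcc
The Kcnj10 window holds 21 CG dinucleotides and the Kcnj9 window 5, against a median of 7 over 32851 promoters of the same length, of which 24.8% have as many as Kcnj10 and 62.0% as many as Kcnj9. Searched on both strands with no allowance for mismatches, GGGCGG (found in 35.7% of all promoters) occurs 3 times in Kcnj10 and 0 times in Kcnj9. CCAAT (37.4% of all promoters) occurs 2 times in Kcnj10 and 1 time in Kcnj9, and TATAAA (13.6%) 0 times in Kcnj10 and 1 time in Kcnj9. A match of letters is a description and not evidence of a bound site.

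Among the leak channel genes, 6 were separated: Kcnk2 in fibroblasts and 5 in cerebellar granule neurons. Kcnk1, Kcnk3, Kcnk9, Kcnk10 and Kcnk12 were the 5 with granule neurons at the top. Kcnk10, a mechanically gated member, averaged 557 CPM there and 304 CPM in OPC, and Kcnk9, an acid-sensitive member, ranged from 76.5 to 90.1 CPM. Kcnk13 stood at 185 and 299 CPM in Ago2 KO and 192 and 226 CPM in WT microglia, and at 144 and 194 CPM in Ago2 KO and 203 and 213 CPM in WT oligodendrocytes, so the classes overlapped. Kcnk13 is the leak channel that sets the resting potential of microglia, and its level in astrocytes averaged 8.79 CPM. Kcnk6 averaged 55.6 CPM in microglia and 7.85 CPM in endothelial cells. The microglial class also held macrophages by their markers. Kcnk2, a channel opened by stretch and lipids, was highest in fibroblasts, with 473 and 455 CPM in Ago2 KO and 632 and 686 CPM in WT.

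The BK pore gene Kcnma1 averaged 2771 CPM in cerebellar inhibitory neurons and 2742 CPM in the Slc17a6 class, with overlapping libraries. Its inactivating beta subunit gene Kcnmb2 was highest in cortical interneurons, at 1156 and 838 CPM in Ago2 KO and 845 and 1047 CPM in WT, and averaged 236 CPM in the next class, the unnamed neurons. The SK gene Kcnn2 averaged 523 CPM in Meis2 GABAergic neurons and 429 CPM in astrocytes, while Kcnn3 averaged 214 CPM in the Slc17a6 class and 170 CPM in astrocytes. The sodium-activated channel gene Kcnt2 averaged 463 CPM in fibroblasts and 462 CPM in cortical excitatory neurons.

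In 2 classes too small to be compared, single genes stood out by level. Kcnj13, an inward rectifier of transporting epithelia, had 114 and 318 CPM in Ago2 KO and 265 and 316 CPM in WT choroid plexus nuclei, of which there were 62, against a mean of 32.3 CPM in fibroblasts. Kcnj8, the pore of an ATP-sensitive channel of pericytes and vascular smooth muscle, gave 27 UMIs over 75 mural nuclei, a mean of 108 CPM, against 15.8 CPM in endothelial cells. Ago2 KO replicate 1 contributed 5 of these mural nuclei.

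Genotype was compared within each class on UMI sums per library, with edgeR's quasi-likelihood test over all genes passing a count filter. No potassium channel gene changed in any of the 15 classes at an adjusted p of 0.05 (Benjamini-Hochberg over all genes of the class), by edgeR or by DESeq2. In cortical excitatory neurons 0 of 56 tested potassium channel genes were called, against 0.00905% of all 11051 genes tested. The share of all genes called was 0.123% in astrocytes, where 0 of 38 potassium channel genes were called, 0.168% in oligodendrocytes (0 of 17), 0.0671% in OPC (0 of 29), 0.0465% in striatal spiny neurons (0 of 36) and 0.0127% in Meis2 GABAergic neurons (0 of 41). It was 0.0% in the other classes, with 0 of 57 in the unnamed neurons, 0 of 43 in cerebellar granule neurons, 0 of 28 in the Slc17a6 class, 0 of 27 in cerebellar inhibitory neurons, 0 of 25 in cortical interneurons, 0 of 23 in microglia, 0 of 19 in fibroblasts, 0 of 17 in committed precursors and 0 of 16 in endothelial cells.

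At an unadjusted p under 0.05 by edgeR there were 7 of 38 tested potassium channel genes in astrocytes, where 8.04% of all tested genes were under 0.05. The same counts, with the share of all genes in brackets, were 6 of 56 in cortical excitatory neurons (5.28%), 5 of 43 in cerebellar granule neurons (6.25%), 5 of 41 in Meis2 GABAergic neurons (3.97%) and 5 of 57 in the unnamed neurons (4.02%). There were 4 of 36 in striatal spiny neurons (5.48%), 4 of 19 in fibroblasts (6.11%), 3 of 29 in OPC (5.75%), 3 of 28 in the Slc17a6 class (3.68%), 3 of 27 in cerebellar inhibitory neurons (4.79%) and 2 of 17 in oligodendrocytes (5.74%). There was 1 of 25 in cortical interneurons (4.25%), 1 of 23 in microglia (5.44%), 1 of 16 in endothelial cells (4.72%) and 0 of 17 in committed precursors (4.82%). The Ago2 KO and WT libraries did not overlap for 21 of 56 tested genes in cortical excitatory neurons, where 33.8% of all tested genes did not overlap, for 16 of 38 in astrocytes (37.3%) and for 18 of 43 in cerebellar granule neurons (34.5%). The counts were 18 of 57 in the unnamed neurons (32.2%), 15 of 36 in striatal spiny neurons (35.6%), 14 of 41 in Meis2 GABAergic neurons (32.6%), 11 of 27 in cerebellar inhibitory neurons (34.5%), 9 of 29 in OPC (34.4%) and 8 of 28 in the Slc17a6 class (33.3%). They were 6 of 19 in fibroblasts (35.2%), 5 of 25 in cortical interneurons (33.0%), 5 of 23 in microglia (35.4%), 5 of 17 in committed precursors (33.3%), 3 of 17 in oligodendrocytes (35.1%) and 3 of 16 in endothelial cells (33.4%).

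The median log2 change of the tested potassium channel genes, Ago2 KO over WT, was -0.03 in cortical excitatory neurons and 0.05 in astrocytes, beside -0.01 and 0.00 over all genes tested in each class. It was farthest from 0 in endothelial cells, at -0.46 beside -0.01 over all genes, with 14 of 16 genes negative and 224 nuclei in the class. The summed level of all 89 genes there was 5440 and 4176 CPM in Ago2 KO and 7368 and 4834 CPM in WT, so the libraries overlapped. Neuronal genes were counted in this class too: Syt1 stood at 1094 and 519 CPM in Ago2 KO and 1185 and 627 CPM in WT (log2 change -0.20), and Rbfox3 at 342 and 118 CPM in Ago2 KO and 498 and 206 CPM in WT (log2 change -0.67). The mitochondrial level was 8614 and 24393 CPM in Ago2 KO and 18831 and 26612 CPM in WT, lowest in Ago2 KO replicate 1. The part of either in the endothelial shift was not tested. The largest endothelial difference was in Kcnq1, at 117 and 187 CPM in Ago2 KO and 296 and 320 CPM in WT (log2 change -1.0, SE 0.35, adjusted p = 0.98 by edgeR).

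**Figure D3:**
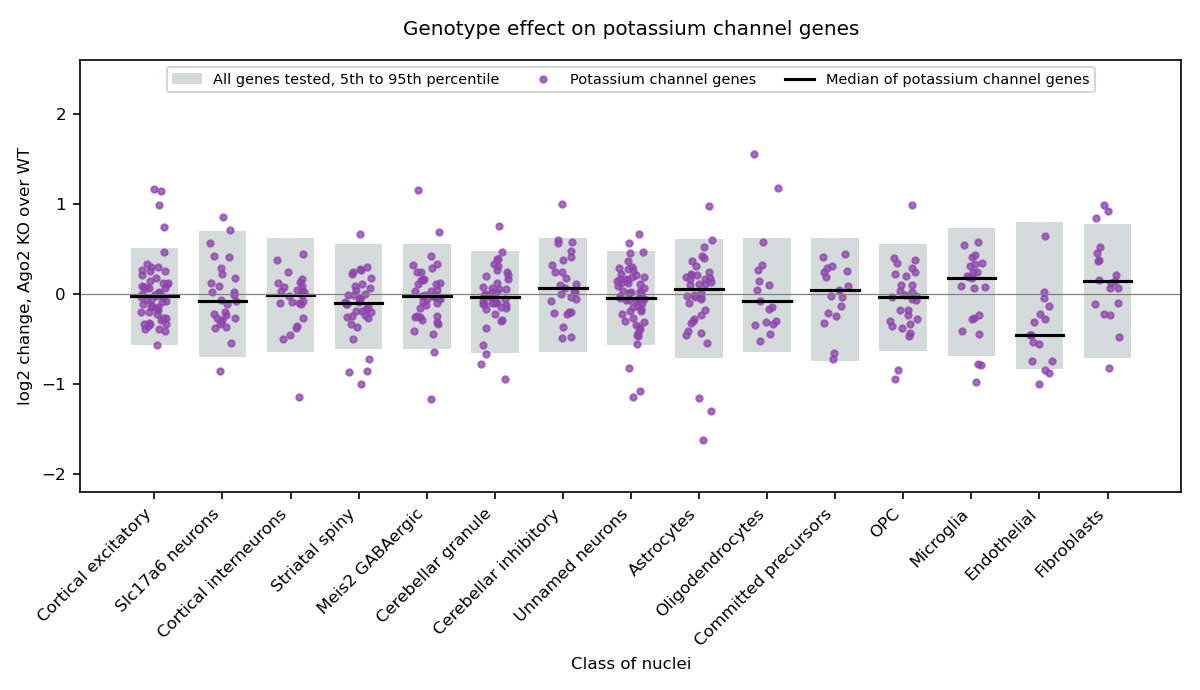
Log2 change, Ago2 KO over WT, of each tested potassium channel gene (points) in the 15 compared classes; black bars are the medians of these genes and grey boxes span the 5th to the 95th percentile of all genes tested in the class. The medians lie between -0.10 and 0.17 except in endothelial cells, at -0.46.

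In cortical excitatory neurons Kcnmb2 had the smallest p of the 56 genes. It stood at 89.9 and 76.9 CPM in Ago2 KO and 36.0 and 36.9 CPM in WT, a log2 change of 1.14 (SE 0.18, edgeR adjusted p = 0.128). Both Ago2 KO libraries lay above both WT libraries, in each of the 2 excitatory clusters too. The larger cluster had 95.8 and 76.8 CPM in Ago2 KO and 36.6 and 38.8 CPM in WT. The smaller had 63.5 and 77.6 CPM in Ago2 KO and 33.3 and 28.1 CPM in WT. Both clusters are parts of the class from the same libraries, so they are not separate evidence. The summed level of 13 cortical interneuron markers in the excitatory class was 631 and 656 CPM in Ago2 KO and 547 and 473 CPM in WT, none of the 13 at 0, and its part in the Kcnmb2 difference was not tested. The SK gene Kcnn3 followed, at 97.2 and 114 CPM in Ago2 KO and 64.6 and 58.5 CPM in WT (log2 change 0.74, SE 0.17, adjusted p = 0.50 by edgeR). Kcnn1, at 20.7 and 9.15 CPM in Ago2 KO and 5.61 and 7.88 CPM in WT, was less even between libraries.

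In cerebellar granule neurons Kcnn2 was at 299 and 252 CPM in Ago2 KO and 143 and 182 CPM in WT (log2 change 0.76, SE 0.15, edgeR adjusted p = 0.434), and Kcnj9 at 21.7 and 19.9 CPM in Ago2 KO and 32.7 and 34.0 CPM in WT (log2 change -0.67, adjusted p = 0.639 by edgeR). Neither pair of ranges overlapped. With replicate number as a block the Kcnn2 difference passed the threshold (adjusted p = 0.0269 by edgeR), although the numbers were not shown to pair the libraries. In the Slc17a6 class Kcnc2 had the smallest p, with the values given above (log2 change -0.86, SE 0.30, edgeR adjusted p = 0.998); the Purkinje marker level of that class differed more between its libraries than between the genotypes.

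In the inhibitory classes no adjusted p was under 0.7 by edgeR. In striatal spiny neurons Kcnc2 stood at 95.2 and 90.8 CPM in Ago2 KO and 59.1 and 54.4 CPM in WT, and Kcnk1 at 16.9 and 21 CPM in Ago2 KO and 38.6 and 36.2 CPM in WT. In Meis2 GABAergic neurons the A-type channel gene Kcna4 stood at 20.5 and 17.6 CPM in Ago2 KO and 36.5 and 45.9 CPM in WT (log2 change -1.17, SE 0.36). In cerebellar inhibitory neurons Kcnj6 stood at 95.5 and 131 CPM in Ago2 KO and 55.8 and 54.7 CPM in WT, where the genotypes did not overlap. In cortical interneurons Kcna1 had 41.8 and 11.3 CPM in Ago2 KO and 55.5 and 61.9 CPM in WT, from 11 UMIs in Ago2 KO and 80 in WT.

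In astrocytes Kcnt1, a sodium-activated channel gene, stood at 125 and 111 CPM in Ago2 KO and 49.7 and 68.3 CPM in WT (log2 change 0.97, SE 0.22, edgeR adjusted p = 0.174). The genotypes did not overlap in any of the 3 astrocyte clusters, which are parts of the class from the same libraries and not separate evidence. Kcnk13 was at 4.11 and 4.34 CPM in Ago2 KO and 14.4 and 12.4 CPM in WT. The summed level of 10 oligodendrocyte markers in the astrocyte class was 492 and 1327 CPM in Ago2 KO and 4871 and 1719 CPM in WT, with all 10 lower in Ago2 KO and none at 0. In the oligodendrocyte class Kcnk13 averaged 189 CPM and Kcnt1 3.74 CPM. The part of oligodendrocyte RNA in these astrocyte differences was not tested. Kcnj10 in astrocytes had a log2 change of -0.18 (SE 0.20, edgeR adjusted p = 0.923).

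In OPC Kcnmb2 ran the other way from the excitatory neurons, at 93.4 and 98.6 CPM in Ago2 KO and 222 and 157 CPM in WT (log2 change -0.95, SE 0.24, edgeR adjusted p = 0.194). In oligodendrocytes Kcnma1 stood at 982 and 210 CPM in Ago2 KO and 190 and 196 CPM in WT (log2 change 1.55, SE 0.42, adjusted p = 0.298 by edgeR), a difference made by Ago2 KO replicate 1. Without that library the log2 change was 0.10. Kcnab1 was high in the same library and class, with 292 and 77.8 CPM in Ago2 KO and 60.5 and 89.8 CPM in WT. The summed level of 10 cortical excitatory markers in oligodendrocytes was also highest there, at 853 and 521 CPM in Ago2 KO and 620 and 601 CPM in WT, with 1 marker (Fezf2) at 0, and its part was not tested. In fibroblasts Kcnk2 was at the levels given above (log2 change -0.48, SE 0.20, edgeR adjusted p = 0.79).

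Several genes leaned one way in many classes, among genes tested in at least 9. They were picked by these tallies, and the matching share over all genes is not given here. Kcnq1, the delayed rectifier named above for endothelial cells, had a negative log2 change in 15 of 15 classes, with a median of -0.30. Kcna1 was negative in 10 of 10 (median -0.48), Kcnt2 in 14 of 15 (median -0.15) and Kcnq5, a subunit of M-type channels, in 12 of 15 (median -0.21), while Kcnk10 was positive in 13 of 14 (median 0.20). None of these passed the threshold in a class, and all classes share the same 4 libraries, so they do not count as separate evidence. Single libraries changed the tallies: without Ago2 KO replicate 1 Kcnq1 was positive in 7 of 15 classes and Kcna1 in 4 of 13, and without WT replicate 1 Kcnq1 was positive in 3. Without Ago2 KO replicate 2 Kcnt2 was positive in 6 classes and Kcnk10 in 9 of 15, and without WT replicate 2 Kcnt2 was positive in 5, Kcnq5 in 6 and Kcna1 in 3 of 10.

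Whether the genotype effect differed between classes was tested as an interaction with library as a block, between cortical excitatory neurons and each of 3 other classes. Against cortical interneurons 1 of 55 potassium channel genes was called (0.0266% of all 11279 genes). It was Kcnmb2, whose difference of log2 changes, excitatory minus interneuron, was 1.17 (SE 0.23, edgeR adjusted p = 0.00705), from 1.14 in excitatory neurons and 0.02 in interneurons. Against astrocytes 1 of 57 was called (0.0494% of all 12142 genes). It was Kcnt1, with a difference of -1.27 (SE 0.26, edgeR adjusted p = 0.0496), from -0.30 in excitatory neurons and 0.97 in astrocytes. In excitatory neurons Kcnt1 had 58.3 and 47.9 CPM in Ago2 KO and 61.3 and 64.3 CPM in WT.

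Against cerebellar granule neurons 0 of 55 were called (0.0% of all 11896 genes), by edgeR and by DESeq2. At an unadjusted p under 0.05 by edgeR there were 10 of 55, beside 9 of 57 against astrocytes and 6 of 55 against cortical interneurons. The share of all genes under 0.05 in these fits is not given here, so these counts do not show an excess. The Kcnmb2 difference there was 1.02 (SE 0.19, edgeR adjusted p = 0.156), and its level in granule neurons was 134 and 130 CPM in Ago2 KO and 113 and 129 CPM in WT. Both interaction calls ended under DESeq2 (adjusted p = 1.00 for each) and without WT replicate 1, the library with the high mitochondrial level (edgeR adjusted p = 0.337 for Kcnmb2 and 0.297 for Kcnt1). The sizes without that library were 1.31 for Kcnmb2 and -1.12 for Kcnt1. The Kcnmb2 call also ended without WT replicate 2 (0.96, edgeR adjusted p = 1) and without Ago2 KO replicate 2 (1.03, adjusted p = 0.217 by edgeR), and the Kcnt1 call without Ago2 KO replicate 1 (-1.28, adjusted p = 0.134 by edgeR).

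**Figure D4:**
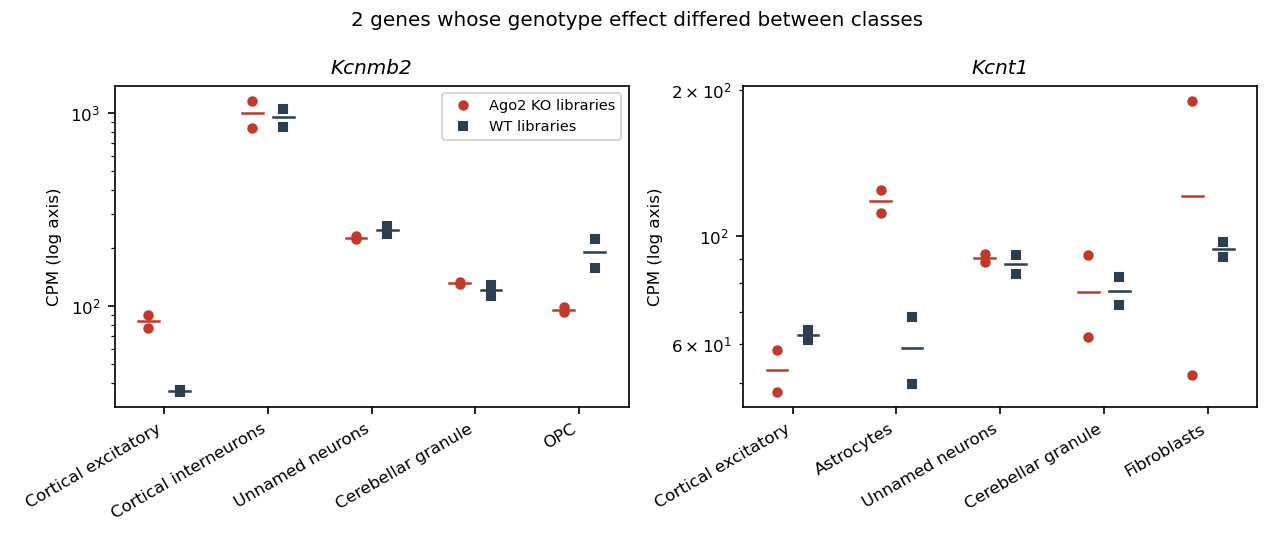
Level (CPM, log axes) of Kcnmb2 and Kcnt1 in 5 classes each; red circles are the 2 Ago2 KO libraries, dark squares the 2 WT libraries, and bars the means. Kcnmb2 does not overlap by genotype in cortical excitatory neurons (76.9 to 89.9 CPM in Ago2 KO, 36.0 to 36.9 CPM in WT) and overlaps in cortical interneurons. It also does not overlap in granule neurons (Ago2 KO higher), OPC and the unnamed neurons (Ago2 KO lower). Kcnt1 does not overlap in astrocytes (111 to 125 CPM in Ago2 KO, 49.7 to 68.3 CPM in WT) or, with Ago2 KO lower, in cortical excitatory neurons. Of all genes tested, 33.8% do not overlap in cortical excitatory neurons and 37.3% in astrocytes.

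The Kcnmb2 gene lies at chr3:31902507-32200180 (plus strand, GRCm38). Its level in the other classes of the plot was 221 and 230 CPM in Ago2 KO and 259 and 235 CPM in WT in the unnamed neurons. In Meis2 GABAergic neurons it had 296 and 139 CPM in Ago2 KO and 144 and 125 CPM in WT, with the Ago2 KO libraries far apart. Of these, the cluster with immature markers averaged 407 CPM and the other 43.2 CPM, and the first made up 49.0% and 43.5% of the class in Ago2 KO and 44.2% and 43.4% in WT.

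Other genes of potassium handling showed few changes in the same fits. Of 226 class tests of 24 channel partner genes 1 was called, in astrocytes, where 0.123% of all genes tested were called. It was Kcnip1, a cytosolic partner of Kcnd channels, at 315 and 164 CPM in Ago2 KO and 61.8 and 71.2 CPM in WT (log2 change 1.83, SE 0.27, edgeR adjusted p = 0.0170). Its result under other settings is not given here. Kcnip1 was next in OPC (log2 change 0.77, edgeR adjusted p = 0.107). None of 110 tests of 11 sodium-potassium pump and cotransporter genes was called. None of 28 tests of the 4 Hcn genes, which encode cation channels opened by hyperpolarisation, was called, led by Hcn2 in oligodendrocytes (log2 change -1.03, edgeR adjusted p = 0.399).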

How the data were processed

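Single-nucleus libraries of 2 Ago2 KO and 2 WT samples were deposited by the authors as UMI count matrices per barcode and gene, 1 per sample, without normalization. Cell Ranger 4.0.0 and Seurat 3.2.3 were used with GRCm38, per the submitters' processing notes; the annotation release and the treatment of intronic reads are not given in the sources used here. Libraries held 10845009 and 11439733 UMIs in Ago2 KO and 13107920 and 29317266 in WT, and intervals from counts cover counting error only.

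Nuclei with a mitochondrial share of at most 5% were kept (every deposited barcode had at least 500 UMIs). Because Scrublet's automatic threshold marked 1 to 6 barcodes per library, the highest-scoring barcodes were removed instead, at a rate that grew with the number of barcodes: 99 and 96 in Ago2 KO, 132 and 365 in WT. Scanpy 1.11.5 clustered log-normalized counts (2000 variable genes, 30 components, Leiden resolution 1 with igraph 0.11.9, no batch integration), without potassium channel, Ago2, sex-linked and mitochondrial genes. A cluster was named from marker lists where at least 3 markers exceeded the mean of the other clusters 2-fold; clusters of very low depth stayed unnamed. Mural, choroid plexus, ependymal, cycling and other unnamed nuclei were not compared.

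Counts were summed per library and class and tested with edgeR 4.0.16 (filterByExpr, TMM, quasi-likelihood, two-sided) in R 4.3.3, with Benjamini-Hochberg adjustment over all genes of the class and a threshold of 0.05; DESeq2 1.42.0 was an alternative, and the tests were tried on simulated counts. An extra Cre feature had 0 UMIs. Named genes are those called, the 3 with the smallest p in each class and the 3 with the highest ratio to other classes (at least 50 UMIs); some further genes were chosen after their values were seen. The gene set, lists and tests were chosen with earlier results of these data known. Gene coordinates are GENCODE's on GRCm38, matched for 89 of 89 genes, and promoters RefSeq's, matched for 64 genes. Results for some genes that the rule for named genes selects are not reported here.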

Additional observations from a re-analysis of the deposited data

Results flagged for a closer look

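The genotype effect on 2 potassium channel genes differed between classes by the interaction test. For Kcnmb2 the log2 change was larger in cortical excitatory neurons than in cortical interneurons, by 1.17. For Kcnt1 it was lower in cortical excitatory neurons than in astrocytes, a difference of -1.27. In neither class of either pair did the gene pass the threshold on its own. With 2 libraries per genotype no group was large enough for a test of single outlying libraries.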

How the results depend on the processing

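No potassium channel gene was called within a class, and this held in all 15 classes with RLE scaling, DESeq2 or Leiden resolution 2, and in every class formed with doublets kept or a mitochondrial limit of 10%. The Slc17a6 class was not formed with doublets kept and fell under 20 nuclei in 1 library at 10%, where the unnamed neurons were named cortical interneurons. Without the count filter 1 gene was called in each of cortical excitatory neurons (Kcnmb2), cerebellar granule neurons (Kcnn2), astrocytes (Kcnt1) and oligodendrocytes (Kcnma1). The replicate numbers were not shown to pair the libraries (correlation of same-numbered deviations -0.29 to 0.10 over the classes, -0.08 over all nuclei). The replicate block called 1 gene in granule neurons and 0 in the other 14 classes. A crossed replicate block, chosen after seeing the data, called 1 in excitatory neurons, 1 in granule neurons, 1 in astrocytes, 2 in oligodendrocytes and 3 in fibroblasts. Leaving out single libraries gave 0 to 1 calls in excitatory neurons, the Slc17a6 class, striatal spiny neurons, Meis2 GABAergic neurons, cerebellar inhibitory neurons, astrocytes and OPC, 0 to 2 in oligodendrocytes and fibroblasts, and 0 to 3 in granule neurons; the added calls came without Ago2 KO replicate 2 in the Slc17a6 class, striatal, Meis2 and granule neurons, without WT replicate 2 in excitatory and cerebellar inhibitory neurons, astrocytes, OPC and fibroblasts, and in oligodendrocytes without WT replicate 1, WT replicate 2 or Ago2 KO replicate 2. The lone library of a group is then assumed to vary like the others. For the alternative settings in this paragraph the share of all genes called is not given here, so the counts cannot be set against it.

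The call against cortical interneurons fell to 0 under DESeq2, with doublets kept, and with either excitatory cluster alone (0 and 0, chosen after seeing the data). The Kcnmb2 difference itself stayed between 0.84 and 1.35, and between 0.96 and 1.35 without single libraries. At a mitochondrial limit of 10% it was 1.35, but the class named cortical interneurons then held mostly the unnamed neurons. The call against astrocytes fell to 0 under RLE scaling, DESeq2, Leiden resolution 2, doublets kept, a mitochondrial limit of 10% and each astrocyte cluster alone (0, 0 and 0), and was 0 to 1 without single libraries; the Kcnt1 difference lay between -1.85 and -0.99. Against granule neurons 1 gene was called without the filter and 1 at Leiden resolution 2, and 0 to 4 without single libraries (4 without Ago2 KO replicate 2). For single genes 517 values kept their direction and their side of the threshold, 27 newly passed it and 17 no longer did. Kcnab1 reversed in cortical interneurons at a mitochondrial limit of 10% (log2 change -0.18, in a class that then held mostly the unnamed neurons) and in oligodendrocytes without Ago2 KO replicate 1 (-0.050 to 1.77 over the libraries left out). The cause of these shifts was not tested. Of the 23 separated genes 19 kept their class at Leiden resolution 2. With 2 libraries per genotype and genes as sparse as Kcna1 in interneurons (11 UMIs in Ago2 KO), small differences were not detectable.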
